A study of Mus musculus with 5 samples.

Results

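The genes described here are 10 regulators of the cell cycle in cultured mouse embryonic fibroblasts (MEFs), taken by name: the CDK inhibitor genes Cdkn2a, Cdkn2b, Cdkn2c, Cdkn1a and Cdkn1b, the tumour suppressor genes Trp53, Rb1 and Rbl1, the p53 antagonist Mdm2 and the cyclin gene Ccnd1. They occupied 11 of the 61082 loci in the deposited tables and are set beside the 21372 genes that had a locus of their own; of the 10, Cdkn2a alone had none and is read from a shared locus. The study expressed the homeobox transcription factors Meis1 and Prep1 (encoded by Pknox1) in MEFs of strain background C57BL/6. The 5 libraries, 1 per group and each at passage 30, were Prep1 hypomorphic cells overexpressing Meis1 (M), Prep1 hypomorphic cells overexpressing Prep1 (P), Prep1 hypomorphic cells overexpressing both factors (MP), Prep1 hypomorphic cells infected with the empty vector (EV), and Prep1 wild-type cells (WT), whose label names no vector. M, P, MP and EV thus share the hypomorphic allele, and by their labels M, P and MP differ from EV in the factor overexpressed, whereas WT differs from EV by genotype, line and infection together. All were kept in DMEM with serum and glutamine. The growth protocol in the labels describes cells from E14.5 hypomorphic embryos for all samples, WT included, and the labels do not say whether a line is a clone or how many embryos it came from.

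CDK inhibitors of the INK4 class, the products of Cdkn2a, Cdkn2b and Cdkn2c, bind CDK4 and CDK6 and block their pairing with D-type cyclins such as cyclin D1. Those of the CIP/KIP class, the products of Cdkn1a and Cdkn1b, act on cyclin E and cyclin A complexes. Active cyclin-CDK complexes phosphorylate the pocket proteins encoded by Rb1 and Rbl1 and so free E2F transcription factors to drive S-phase genes. Cdkn2a also encodes ARF, from another promoter and reading frame, and ARF holds back MDM2, the ubiquitin ligase that degrades p53. In serially passaged MEFs, ARF and p53 are the known barrier to immortal growth, and cultures that pass it commonly do so after loss of either.

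The sequences before the starts of Cdkn2a and Cdkn1a are shown because each gene has 2 annotated starts whose output a level per locus adds together. Cdkn2c has 2 as well, and its sequences are not shown. The sequences shown come from RefSeq on GRCm38.p6, run 5′ to 3′ on the gene's own strand, and cover 250 bases before and 50 after each start. Capitals mark matches, on either strand, to GGGCGG (GC box), TTTNNCGC (an E2F motif), TGANTCA (the AP-1 motif), TGACAG (the motif of Meis and Prep proteins) and ACATGT (the core of a half-site for p53), none of which overlapped another. For Cdkn2a, the first line is the outer start, which makes ARF, at chr4:89294570-89294869 on the minus strand, and the second the inner start, which makes p16-INK4a, at chr4:89282143-89282442 on the minus strand. For Cdkn1a, the first is the upstream start at chr17:29090729-29091028 and the second the downstream start at chr17:29093519-29093818, both on the plus strand.
Cdkn2a outer start: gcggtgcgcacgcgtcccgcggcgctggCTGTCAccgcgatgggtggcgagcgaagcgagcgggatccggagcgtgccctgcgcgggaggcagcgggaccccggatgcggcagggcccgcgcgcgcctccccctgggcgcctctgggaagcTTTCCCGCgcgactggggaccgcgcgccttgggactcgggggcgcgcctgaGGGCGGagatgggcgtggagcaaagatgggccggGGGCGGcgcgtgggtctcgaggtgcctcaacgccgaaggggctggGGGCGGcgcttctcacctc
Cdkn2a inner start: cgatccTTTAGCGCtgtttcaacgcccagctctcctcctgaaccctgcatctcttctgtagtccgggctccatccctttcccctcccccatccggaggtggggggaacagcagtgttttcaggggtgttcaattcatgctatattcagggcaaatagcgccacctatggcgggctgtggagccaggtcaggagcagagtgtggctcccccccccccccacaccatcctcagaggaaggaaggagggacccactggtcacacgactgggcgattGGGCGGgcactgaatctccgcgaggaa
Cdkn1a upstream start: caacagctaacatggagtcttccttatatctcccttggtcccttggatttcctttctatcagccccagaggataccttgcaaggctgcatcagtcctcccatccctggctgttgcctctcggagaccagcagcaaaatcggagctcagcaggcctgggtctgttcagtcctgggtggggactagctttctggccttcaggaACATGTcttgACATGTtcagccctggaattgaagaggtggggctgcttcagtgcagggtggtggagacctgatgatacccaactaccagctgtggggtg
Cdkn1a downstream start: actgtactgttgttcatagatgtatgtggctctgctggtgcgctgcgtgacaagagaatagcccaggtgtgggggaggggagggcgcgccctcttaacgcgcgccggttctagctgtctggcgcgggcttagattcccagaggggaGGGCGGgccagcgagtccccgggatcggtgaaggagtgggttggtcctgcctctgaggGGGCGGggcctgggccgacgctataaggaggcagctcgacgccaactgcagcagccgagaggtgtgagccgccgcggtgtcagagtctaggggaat

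The outer Cdkn2a window held 3 GC boxes, 1 E2F match and 1 TGACAG match, and the inner window 1 GC box and 1 E2F match. The upstream Cdkn1a window held 2 copies of ACATGT, 49 and 39 bases before the start, a motif with 2 or more copies in 0.329% of 32851 promoters of this length. Its downstream window held 2 GC boxes and none of the other motifs. Of all promoters, 35.7% held a GC box, 19.2% TGACAG, 7.81% TGANTCA and 5.17% TTTNNCGC. None of the 11 windows found for 8 of the 10 genes held TGANTCA. Apart from the outer Cdkn2a window, TGACAG stood only in 1 window of Cdkn2c. ACATGT was searched after the sequence was seen. These matches describe letters, and no binding was measured.

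Levels are given in scaled units, which are FPKM after setting the upper quartile of single-gene loci in each library to 10, because deposited FPKM differed in level between libraries. That upper quartile was 429 FPKM in M, 11.6 in P, 9.63 in MP, 157 in EV and 12.2 in WT. M and EV, the 2 libraries at the high level, also listed 70.0% and 99.9% of 1422 olfactory and vomeronasal receptor genes above 0, against 10.9% to 17.1% in P, MP and WT. Read depth is unknown. With 1 library per group no difference has a replicate check, and no test or p-value across genes was made; fewer cells using a gene and less RNA per cell cannot be told apart. A ratio is log2((level + 1)/(level + 1)), and genes at 1 unit or more in 1 of the 2 libraries were kept. A gene was called past 2-fold or past 1.5-fold from this ratio. Meis1 stood at 16.8 in M, 8.86 in P, 15.4 in MP, 8.32 in EV and 12.4 in WT, following its label. Pknox1 stood at 3.25 in M, 0.554 in the library labelled P, 0.569 in the library labelled MP, 2.16 in EV and 11.02 in WT, so the labels P and MP were not matched by their Pknox1 level, and P and MP stand throughout for the libraries so labelled. Of 10 fibroblast markers found, at least 9 stood at 1 unit or more in every library, with summed levels between 102.4 and 127. Summed levels were 0.307 to 2.85 for 5 epithelial markers, 1.60 to 3.83 for 4 leukocyte markers, 0.800 to 1.89 for 5 endothelial markers, 0.0629 to 0.853 for 3 skeletal muscle markers and 5.36 to 12.1 for 3 neural markers. Csf1r (1.17 to 3.71) made most of the leukocyte sum and Tubb3 (5.05 to 12.0) most of the neural sum. The leukocyte marker Cd68 was listed only in a locus that joins several genes, at 18.2 to 26.9 units, and was not counted.

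All 10 genes were above 0 in all 5 libraries, and the locus that holds Cdkn2a stood above nearly all genes with a locus of their own. Cdkn2a was listed only in a locus joined with Cdkn2b, so its level is that of both genes and, within Cdkn2a, of p16-INK4a and ARF. This joined locus stood at 32.2 scaled units in M, 24.6 in P, 24.5 in MP, 33.6 in EV and 24.3 in WT. Its level was above that of 99.4% to 99.8% of kept genes in each library. Loci that join several genes were high as a class, with medians of 13.6 to 15.05 units, and among the 819 kept joined loci it stood at percentile 88.2 to 97.9. M and EV lay above P, MP and WT, which were within 0.3 units of each other, and the 2 higher libraries are the 2 with the high deposited level; the part of that level difference in this result was not tested. Cdkn1b and Trp53 had the same order, which made 3 of 10 members, against 19.4% of kept joined loci and 18.3% of kept genes; 1 member, Rbl1, had M and EV below the others, against 8.6% of kept genes.

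Cdkn2b, the p15-INK4b gene, also had a locus of its own, at 8.35 units in M, 6.28 in P, 6.02 in MP, 5.52 in EV and 8.03 in WT. M and WT were the high libraries and EV the low one. The tables give neither coordinates nor strand, so which stretch of Cdkn2b this locus covers is not known. Cdkn2c, the p18-INK4c gene, was the steadiest member, at 19.2 in M, 18.3 in P, 18.3 in MP, 18.0 in EV and 20.0 in WT, the highest being 1.11 times the lowest. It stood above at least 94.9% of kept genes in every library.

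The CIP/KIP pair was unequal. Cdkn1b, the p27-KIP1 gene, stood at 15.4 units in M, 13.1 in P, 14.3 in MP, 14.9 in EV and 13.7 in WT, which differ by at most 1.18-fold. Cdkn1a, the p21-CIP1 gene and a classical p53 target, was the lowest member in M, P, MP and EV, at 5.28 in M, 3.00 in P, 5.09 in MP, 3.41 in EV and 5.48 in WT. It was high in both Meis1-labelled libraries and in WT and low in P and EV. These 2 sets were drawn from the Cdkn1a levels themselves, and the share of all genes with this split was not taken. Its percentile among kept genes was 30.4 in M, 20.9 in P, 30.7 in MP, 23.6 in EV and 25.7 in WT, where WT lay nearer to EV than to M. The highest level was 1.83 times the lowest, the widest relative span of the 10 genes. Because libraries can be scaled in other ways, the ratio of Cdkn1a to Cdkn1b within a library was also taken; it was 0.343 in M, 0.229 in P, 0.355 in MP, 0.229 in EV and 0.399 in WT, with the same libraries high and low.

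Trp53 itself was well expressed, at 17.9 units in M, 13.8 in P, 17.3 in MP, 19.5 in EV and 12.8 in WT, above 86.3% to 97.1% of kept genes. EV was highest and WT lowest. A lower Trp53 locus stood at 5.22 in M, 3.15 in P, 4.28 in MP, 3.65 in EV and 2.36 in WT, again lowest in WT. Mdm2, whose product degrades p53 and whose gene p53 activates, was flat, at 12.2 in M, 12.8 in P, 12.7 in MP, 12.3 in EV and 11.1 in WT. Within a library the ratio of Mdm2 to Trp53 was therefore 0.679 in M, 0.925 in P, 0.732 in MP, 0.630 in EV and 0.866 in WT, and that of Cdkn1a to Trp53 was 0.294, 0.217, 0.294, 0.175 and 0.428 in the same 5 libraries. Both ratios used the higher Trp53 locus alone, shared that denominator, and were lowest in EV. With both Trp53 loci summed, the log2 ratio of Trp53 in M over EV was 0.0002. By that sum the ratio of Mdm2 to Trp53 was not lowest in EV, since Mdm2 stood at 12.2 in M and 12.3 in EV.

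The pocket protein genes differed in level. Rb1 stood at 6.08 units in M, 5.30 in P, 6.49 in MP, 5.47 in EV and 4.47 in WT, lowest in WT. Lpar6, a receptor gene that overlaps Rb1, stood at 6.54 in M, 6.76 in P, 6.48 in MP, 5.81 in EV and 5.60 in WT, and reads of this overlap cannot be told apart without strand. Rbl1, the p107 gene and itself an E2F target, stood at 13.9 in M, 14.9 in P, 15.7 in MP, 14.4 in EV and 15.7 in WT. The Rbl1 level was 2.29 times that of Rb1 in M, 2.81 in P, 2.41 in MP, 2.64 in EV and 3.51 in WT. Ccnd1, the cyclin D1 gene, stood at 12.4 in M, 13.1 in P, 15.1 in MP, 15.8 in EV and 11.7 in WT, highest in EV and MP.

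**Figure D1:**
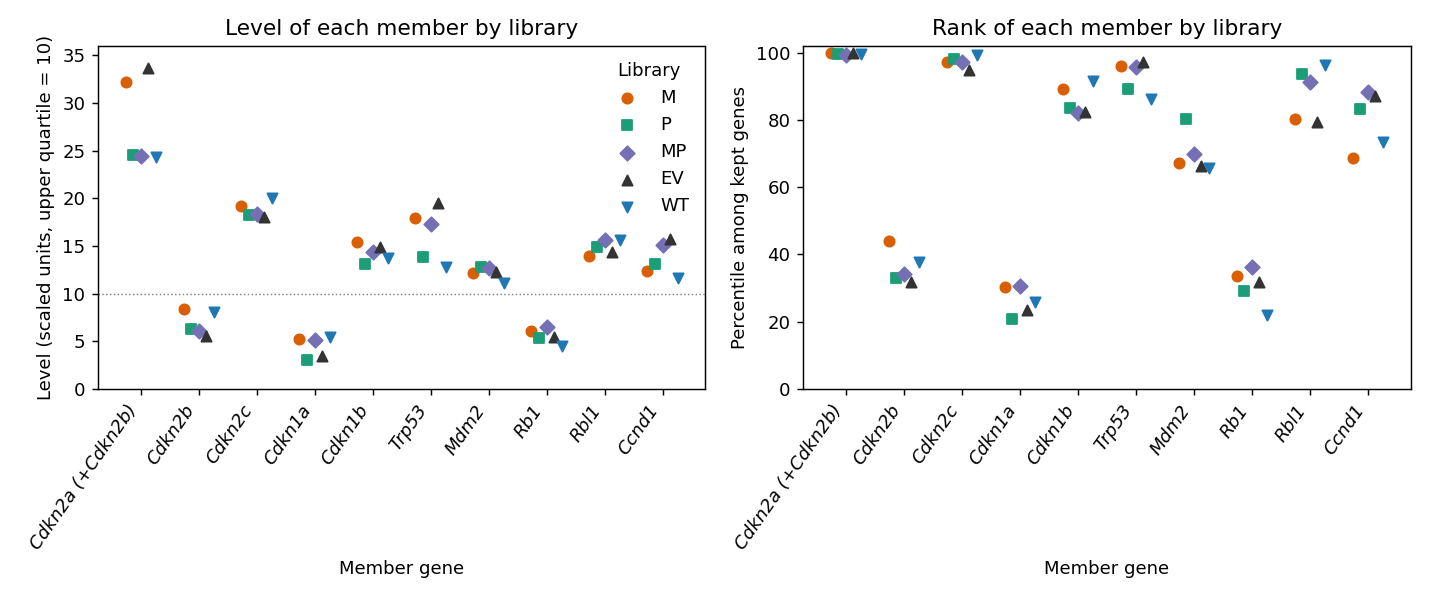
Level of the 10 genes in scaled units (left, dotted line at the upper quartile of 10) and percentile of that level among the kept genes of the same library (right), 1 point per library, with no error bars because each group is 1 library. The Cdkn2a locus, joined with Cdkn2b, stands at 24.3 to 33.6 units, and Cdkn1a at 3.00 to 5.48.

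Across the 5 libraries the 10 genes varied about as much as other genes. The span from lowest to highest log2(level + 1) had a median of 0.43 over the 10 genes, against 0.38 over 9480 genes with a mean level of 3 or more. Cdkn1a, at 0.70, exceeded 83.2% of those genes, Trp53, at 0.57, exceeded 74.4%, and Cdkn2b, at 0.52, exceeded 69.5%. Cdkn2c (0.14), Rbl1 (0.16) and Mdm2 (0.19) were the steadiest, with spans above only 5.19%, 6.76% and 11.4%.

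The comparison of M with EV sets Meis1 overexpression against the empty vector in Prep1 hypomorphic cells. None of the 10 genes was past 2-fold or 1.5-fold, where 0.924% and 4.26% of 11144 kept genes were. Cdkn2b (0.52) and Cdkn1a (0.51), both inhibitor genes, came nearest on the log2 scale and exceeded 98.0% and 97.9% of kept genes in this ratio. Without the 1 added to each level, M stood at 1.51 times EV for Cdkn2b and 1.55 times for Cdkn1a, both past 1.5-fold. The share of all genes past 1.5-fold in that way was not taken. Ccnd1 lay on the other side, at 12.4 units in M and 15.8 in EV (-0.32, above 8.49% of kept genes). The remaining ratios ran from -0.11 for Trp53 to 0.13 for Rb1. With both Trp53 loci summed its ratio was 0.0002. The median over the 10 genes was 0.01, and -0.01 over all kept genes.

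In the library labelled P none of the 10 genes was past 2-fold or 1.5-fold from EV, where 2.5% and 7.57% of 11163 kept genes were. Trp53 stood at 13.8 units in P and 19.5 in EV (-0.47), and the Cdkn2a locus at 24.6 and 33.6 in these libraries (-0.44). They were the 2 largest differences, with ratios above 8.27% and 9.34% of kept genes; P and EV also differ in deposited level, whose part here was not tested. Ccnd1 (-0.25) and Cdkn1b (-0.18) were next, and the other 6 genes lay between -0.14 for Cdkn1a and 0.16 for Cdkn2b. In the library labelled MP again no member was past 2-fold or 1.5-fold from EV (2.26% and 6.17% of 11034 kept genes). Cdkn1a stood at 5.09 in MP and 3.41 in EV (0.46, above 97.8% of kept genes), and the Cdkn2a locus at 24.5 in MP and 33.6 in EV (-0.44). With libraries scaled to their median in place of their upper quartile, the ratio of the Cdkn2a locus was -0.02 and that of Cdkn1a 0.83, and Rb1 was also past 1.5-fold (0.60). The median of all kept genes in MP over EV was then 0.36, with 88.9% of them above 0. The share of them past 1.5-fold was not taken under that scaling. M, P and MP are all set against the same EV library here.

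MP against P sets the library labelled with both factors against the one labelled with Prep1, and MP against M against the one labelled with Meis1; Pknox1 was low in P and MP alike. Cdkn1a, at 5.09 units in MP and 3.00 in P (0.61), was the only member past 1.5-fold in MP over P, where 6.51% of 10771 kept genes were past it in either direction and 1.44% on the higher side. On deposited values its ratio was 0.40 and no member was past 1.5-fold, and by the median scaling 3 were, Cdkn1a (0.95), Trp53 (0.68) and Rb1 (0.60). The median of all kept genes was then 0.39, with 85.7% of them above 0. By the upper quartile Trp53 (0.31), Rb1 (0.25) and Ccnd1 (0.19) were higher in MP by less, and no member was past 2-fold (1.01% of kept genes). In MP over M no member was past 2-fold or 1.5-fold (1.51% and 4.02% of 10855 kept genes), with Cdkn2b at -0.41 and the Cdkn2a locus at -0.38 the lowest and Ccnd1 at 0.27 the highest. By the median scaling these 3 ratios were -0.09, -0.02 and 0.62, the last past 1.5-fold. The median of all kept genes in MP over M was then 0.33, with 89.7% of them above 0. Taking the Meis1-labelled libraries M and MP against EV and P, both lay above both at Cdkn1a, Rb1 and, by a margin of under 0.1 units, Cdkn2c, or 3 of 10 members, against 19.6% of 11867 kept genes. Both lay below both at 0 of 10, against 19.3%.

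EV against WT sets Prep1 hypomorphic cells against wild-type cells, with line and infection confounded with genotype. None of the 10 genes was past 2-fold or 1.5-fold, where 9.51% and 23.1% of 11657 kept genes were. Trp53 came nearest on the higher side, at 19.5 units in EV and 12.8 in WT (0.57, above 89.8% of kept genes), followed by the Cdkn2a locus (0.45) and Ccnd1 (0.41). Cdkn1a, at 3.41 in EV and 5.48 in WT (-0.55, above 14.53% of kept genes), and Cdkn2b (-0.47) lay lowest. Without the 1 added to each level, EV stood at 1.52 times WT for Trp53 and 0.623 times for Cdkn1a, both past 1.5-fold. By the median scaling Trp53 (0.88), the Cdkn2a locus (0.78) and Ccnd1 (0.72) were past 1.5-fold, and Cdkn1a and Cdkn2b were at -0.27 and -0.17. The median of all kept genes was then 0.37, with 75.7% of them above 0. By the upper quartile the median over the members was 0.12, and 0.07 over all kept genes.

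The other hypomorphic libraries did not all share these differences from WT. P and WT are of like deposited level, and between them Cdkn1a stood at 3.00 units in P and 5.48 in WT (-0.70), the only member past 1.5-fold, where 14.6% of 11404 kept genes were past it in either direction and 11.3% on the lower side; 8.32% were past 2-fold and no member was. In that pair Trp53 differed by 0.10, the Cdkn2a locus by 0.02 and Ccnd1 by 0.15. In MP over WT, Rb1 (0.45), Trp53 (0.41), Cdkn2b (-0.36) and Ccnd1 (0.35) were furthest from 0, and no member was past 1.5-fold (21.8% of 11317 kept genes) or past 2-fold (10.2%). In M over WT, Trp53 (0.45), the Cdkn2a locus (0.39) and Rb1 (0.37) were furthest, and none was past 1.5-fold (21.4% of 11535) or past 2-fold (10.5%). All 4 hypomorphic libraries lay above WT at Trp53, Mdm2, Rb1, Ccnd1 and the Cdkn2a locus, 5 of 10 members against 41.3% of kept genes, and below WT at Cdkn1a, Cdkn2c and Rbl1, 3 of 10 against 30.8%. At the Cdkn2a locus, Rbl1 and Cdkn1a the nearest library was within 0.3 units of WT, and by percentile Cdkn1a was higher in M (30.4) and MP (30.7) than in WT (25.7). These 4 comparisons share the 1 WT library.

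**Figure D2:**
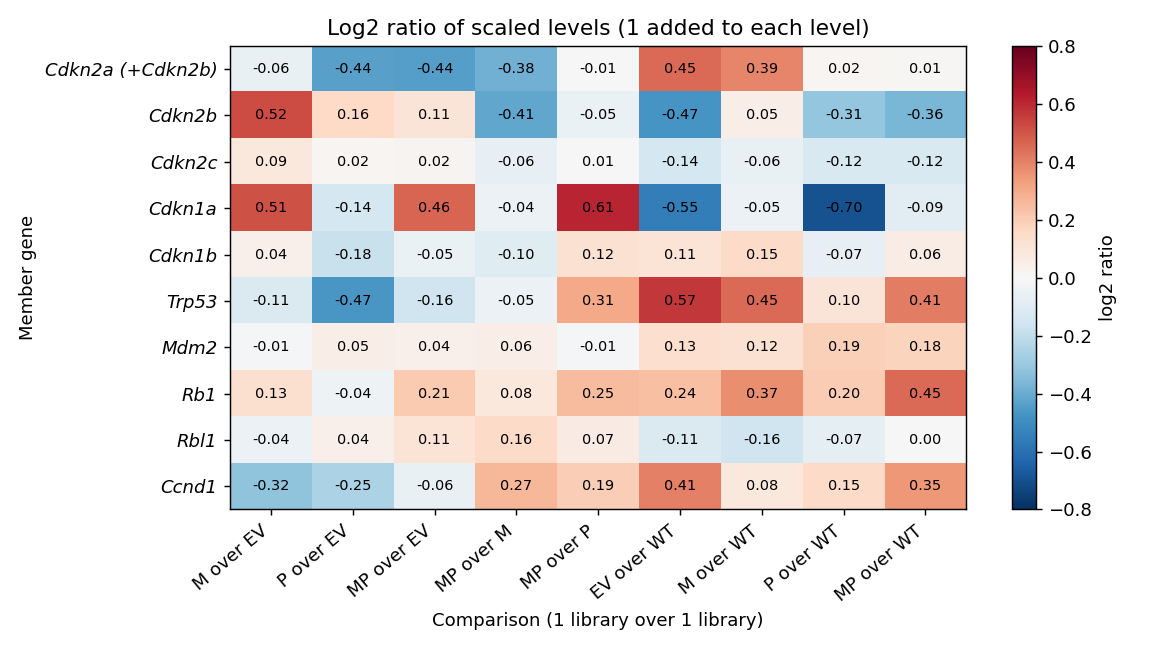
Log2 ratios of scaled levels, with 1 added to each, for the 10 genes (rows) in 9 comparisons of 1 library over 1 library (columns); red is higher in the library named first and blue lower. The most extreme values are both of Cdkn1a, 0.61 in MP over P and -0.70 in P over WT.

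A scaling to the median of the same loci in place of the upper quartile moved the median of all kept genes by 0.39 in MP over EV, 0.36 in MP over P, 0.34 in MP over M and 0.31 in EV over WT, and by 0.05 or less in M over EV and P over EV. All 4 shifts were upward, so in these comparisons positive ratios kept their sign and grew, and negative ratios shrank or changed sign; Trp53 in MP over EV, for example, was -0.16 by the upper quartile and 0.25 by the median. Cdkn1a was above 0 in M over EV, MP over EV and MP over P, and below 0 in EV over WT, under both scalings.

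The cell cycle genes around the members were described by lists chosen by known role, with earlier results of these data known. The D-type cyclin partner Cdk4 stood at 13.01 units in M, 10.99 in P, 13.6 in MP, 16.6 in EV and 10.1 in WT. None of the 16 kept cyclin and CDK genes was past 1.5-fold in M, P or MP over EV, against 4.26%, 7.57% and 6.17% of kept genes. In EV over WT 1 of the 16, Cdk4 (0.67), was past 1.5-fold and none past 2-fold, against 23.1% and 9.51% of kept genes. The list median there was 0.20 against 0.07 over all kept genes. Among E2F targets, the genes that free E2F switches on in S phase, all 19 kept of 22 listed were higher in EV than WT, where 55.9% of all kept genes were, and 5 were higher by 1.5-fold, against 9.52% of kept genes (23.1% in either direction). Mcm6 (0.82), Mcm4 (0.78) and Uhrf1 (0.74) were highest. All 19 counted genes were lower in P than EV, where 41.6% of all kept genes were higher, while Rbl1 was slightly higher (0.04). The list median was -0.28 against -0.05 over all kept genes, and none was past 1.5-fold, against 7.57% of kept genes. In MP over P 18 of 19 were higher (median 0.27 against 0.04), as were 55.8% of all kept genes. By the median scaling 18 of 19 were lower in P than EV, where 47.0% of all kept genes were higher. All 19 were then higher in EV than WT and in MP than P, where 75.7% and 85.7% of all kept genes were. In the other libraries over the same EV, 16 of 19 were lower in M (median -0.14) and 15 of 19 in MP (-0.11). Of all kept genes, 46.5% were higher in M than EV and 42.2% in MP than EV. By the median scaling all 19 were higher in MP (0.30, against 0.36 over all kept genes), as were 88.9% of all kept genes. P and MP are of like deposited level and P and EV are not, and the part of that level in the difference from EV was not tested.

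Of the 3 other CDK inhibitor genes, 2 were lower in every hypomorphic library than in WT, as were 30.8% of kept genes. Cdkn2d, the p19-INK4d gene, stood at 7.82 units in M, 10.0 in P, 9.93 in MP, 6.91 in EV and 15.9 in WT, and Cdkn1c, the p57-KIP2 gene, at 0.657 in M, 0.393 in P, 0.740 in MP, 0.561 in EV and 1.99 in WT. WT was highest at both, and Cdkn2d was past 2-fold in EV over WT (-1.09), though not by the median scaling. Of kept genes, 6.31% were lower by 2-fold in EV over WT. Cdkn3, a phosphatase gene, did not follow them (0.14 in EV over WT). Among 13 counted pocket protein, E2F and DREAM complex genes, 1 was past 1.5-fold in EV over WT, against 23.1% of kept genes. This was the repressor gene E2f6, at 7.95 in EV and 13.5 in WT (-0.70). None of the 13 was past 1.5-fold in M, P or MP over EV, against 4.26%, 7.57% and 6.17% of kept genes.

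Genes that p53 activates did not move together. Of 25 kept p53 target genes none was past 1.5-fold in M over EV, against 4.26% of kept genes. In P over EV 3 of 26 were higher by 1.5-fold, against 2.43% of kept genes, and none lower: Perp, a p53 effector at cell junctions, at 3.60 units in P and 0.657 in EV (1.47, past 2-fold), the death receptor gene Fas (0.77) and Psrc1 (0.71). Perp was past 1.5-fold in MP over EV as well, at 2.07 in MP, where 6.17% of kept genes were past it in either direction. In MP over P the 1 gene past 1.5-fold was Trp53inp1, a p53 cofactor gene, at 2.95 in MP and 1.40 in P (0.72). Of kept genes, 6.51% were past it in MP over P in either direction and 1.44% on the higher side. In MP over M 1 of 26, Perp, was past 1.5-fold and also past 2-fold, at 2.07 in MP and 0.137 in M (1.43). Of kept genes, 4.02% and 1.51% were past these folds in either direction. There 18 of 26 were higher in MP, against 46.5% of kept genes. By the median scaling 25 of 26 were, against 89.7%. In EV over WT 5 of 26 were lower by 1.5-fold, against 13.6% of kept genes, and 1, the nuclease gene Aen (0.82), higher, against 9.52%; the 6 together are near the 23.1% of kept genes past it in either direction. Psrc1 was lowest, at 2.57 in EV and 9.02 in WT (-1.49). The list medians were -0.06 in M over EV, -0.07 in P over EV, 0.04 in MP over EV and -0.12 in EV over WT, against -0.01, -0.05, -0.04 and 0.07 over all kept genes. By the median scaling the EV over WT median was 0.19, against 0.37 over all kept genes, so it kept its place below them but not its sign. None of the 14 counted p53 regulators, among them Mdm4 and Atm, was past 1.5-fold in any of M, P or MP over EV, EV over WT, MP over M or MP over P. Of kept genes, 4.26%, 7.57%, 6.17%, 23.1%, 4.02% and 6.51% were past it in these comparisons, in that order. The regulator gene Chek1 was listed only in a locus that joins several genes, and was not counted. That locus stood at 20.3 units in M, 15.6 in P, 20.6 in MP, 22.4 in EV and 12.2 in WT. Its levels in EV and WT were thus more than 1.5-fold apart.

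**Figure D3:**
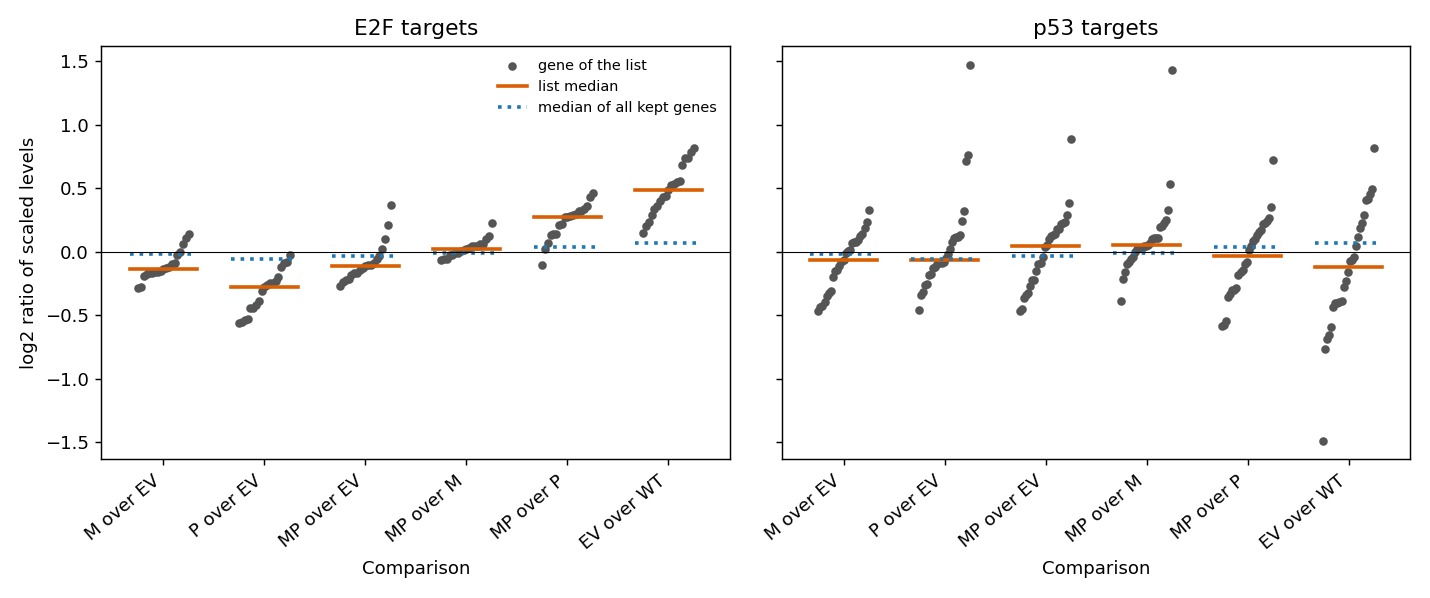
Log2 ratios of the counted E2F target genes (left) and p53 target genes (right), 1 point per gene, in 6 comparisons of 1 library over 1; the solid bar is the list median and the dotted bar the median of all kept genes. The E2F median is -0.28 in P over EV and 0.49 in EV over WT, and the p53 points spread on both sides of 0.

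Among 17 kept regulators of Cdkn2a, none was past 1.5-fold in M, P or MP over EV, against 4.26%, 7.57% and 6.17% of kept genes. In EV over WT 1 of the 17 was lower by 1.5-fold and 1 higher, against 13.6% and 9.52% of kept genes (23.1% in either direction). Cbx7, a Polycomb gene that represses the INK4 locus, was the lower, at 1.497 units in EV and 6.65 in WT (-1.61). Tbx3, a repressor of ARF, was the higher, at 8.21 in EV and 4.83 in WT (0.66). Cbx7 was below WT in each hypomorphic library (1.08 to 1.75), as were 30.8% of kept genes. Tbx3 was above WT in each (8.21 to 10.3), as were 41.3%. Of the genes secreted or lost in senescence, Cxcl1, a chemokine gene, stood at 0.494 in EV and 12.3 in WT, Mmp3, a matrix protease gene, at 0.374 in EV and 8.87 in WT, and Igfbp5 at 3.41 in EV and 9.14 in WT, which made 3 of 9 lower in EV by 2-fold, against 6.31% of kept genes. At 1.5-fold 4 of 9 were lower, with Igfbp3 (-0.78) the fourth, and 1, Ccl2 (0.65), higher, against 13.6% and 9.52%. The nuclear lamina gene Lmnb1 stood at 15.3 in M, 13.7 in P, 14.9 in MP, 15.6 in EV and 13.1 in WT. Over EV, Igfbp5, an IGF-binding protein gene, was past 2-fold in P and MP, at 13.9 and 13.8 units, and past 1.5-fold in M (0.80). Past 1.5-fold over EV were also the cytokine gene Il6 in M (0.60) and Mmp3 in P (0.73), and none of the list was lower by 1.5-fold in M, P or MP. Of kept genes, 4.26% in M, 7.57% in P and 6.17% in MP were past 1.5-fold over EV in either direction. The list thus held differences of both signs.

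**Figure D4:**
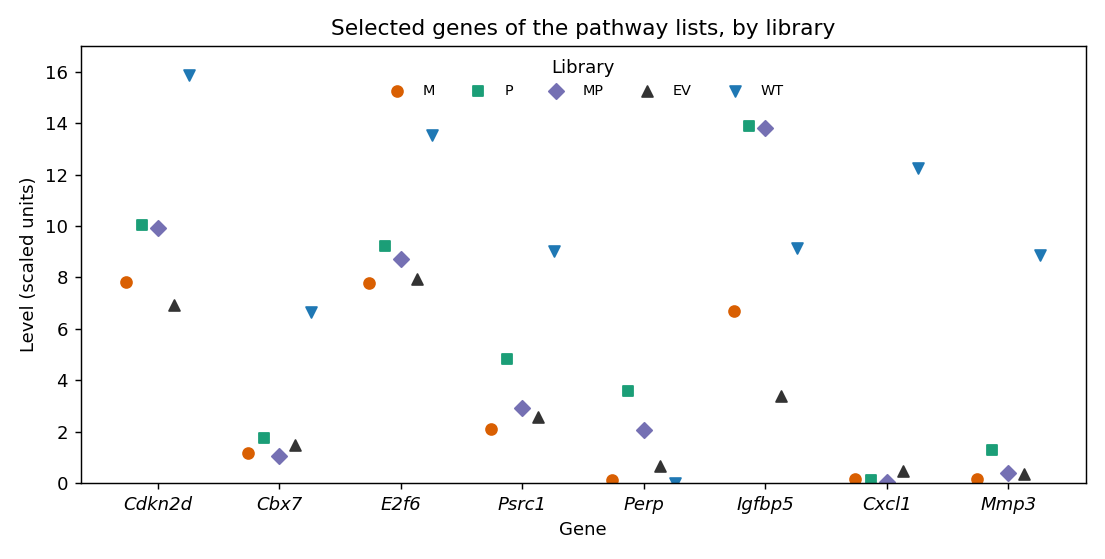
Levels in scaled units of 8 genes of the pathway lists, picked for display after their values were seen, 1 point per library and no error bars. WT is highest at Cdkn2d, Cbx7, E2f6, Psrc1, Cxcl1 and Mmp3, at 15.9, 6.65, 13.5, 9.02, 12.3 and 8.87 units.

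The authors' deposited tables, which test 1 library against 1 on unscaled FPKM, called 3 of the 11 member loci in M against EV, all higher: Cdkn1b (q-value 0.00177), Cdkn2c (0.00421) and Cdkn1a (0.0435). They called 8 of 11 in each of P, MP and WT against EV, all lower in those libraries than EV, with the other 3, Mdm2, Cdkn2b and the Cdkn2a locus, marked FAIL. In M against EV 7 were marked FAIL and Rb1 was tested and not called. On deposited values 12906 genes were past 2-fold higher and 2579 lower in M over EV. In P over EV 20813 of 20843 genes were past 2-fold lower, and in MP over EV 20826 of 20831, all 10 members among them in both.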

How the data were processed

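The 4 deposited tables each pair EV with M, P, MP or WT. The authors' values are FPKM per locus; TopHat, Cufflinks, Cuffdiff and mm9 are named in the submitters' processing notes, and their versions and annotation are not given in the sources used here. Every deposited p-value, q-value and log2 fold change is the authors' own, and was read for member loci only. EV was read from its pair with M; in the pairs with MP, P and WT it differed by a constant factor of 0.972, 1.10 and 1.12, and tables were normalised separately, so levels were set across them only after scaling.

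Of 61082 loci, 37277 had no symbol and 911 joined several genes. Each library was scaled so that the upper quartile of 22338 single-gene loci (those reaching 1 FPKM somewhere) was 10. For a symbol with several loci the one with the highest mean log2(level + 1) was used. Genes at 1 unit or more in 1 of the 2 libraries were kept, 1 was added before taking log2, and calls were at 2-fold and 1.5-fold. The scaling and calls were tested on simulated data, in which every library was the EV profile times a constant with small noise. That simulation could not show whether the scaling suits real libraries, which also differ in the shape of their values. Named genes were the 10 members, up to 3 highest and 3 lowest of each list per comparison, loci within 1 Mb of Cdkn2a and the 3 genes most like the 2 most variable members; genes in the plot of list genes, Lmnb1, Mdm4, Atm, Igfbp3 and Lpar6 were added with their values in view. Members and lists were chosen with earlier results of these data known. Neighbours and promoters came from RefSeq GRCm38.p6, matched by symbol (8 of 10 members have a promoter there). No coordinates were used across builds. Computation used Python 3.11.15, pandas 2.3.3 and numpy 2.4.6.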

Additional observations from a re-analysis of the deposited data

Results flagged for a closer look

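The Meis1-labelled effect and the Prep1-labelled effect were each read in 2 backgrounds, and members whose log2 ratio was at least 0.1 in size and opposite in sign were set apart. None of these differences was tested, since each ratio rests on 1 library over 1. Trp53 was -0.11 in M over EV and 0.31 in MP over P, and Ccnd1 was -0.32 in M over EV and 0.19 in MP over P. The Trp53 values are those of its higher locus. With both Trp53 loci summed the ratio in M over EV was 0.0002, below the size of 0.1 set here. For Prep1, Cdkn2b was 0.16 in P over EV and -0.41 in MP over M, and Ccnd1 was -0.25 in P over EV and 0.27 in MP over M. The same was seen at 15% of 11867 kept genes for Meis1 and 13.4% for Prep1, against 2 of 10 members each. The ratios share the libraries M, P, MP and EV, and those with MP on top move by 0.34 to 0.36 with the scaling.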

How the results depend on the processing

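With values as deposited, all 10 members were past both 2-fold and 1.5-fold in M over EV, P over EV, MP over EV, EV over WT and MP over M, and 0 were past 1.5-fold in MP over P; genes past 2-fold then numbered 15485, 20825, 20826, 20472, 18532 and 227 in M over EV, P over EV, MP over EV, EV over WT, MP over M and MP over P. Scaling to the median put 2 members past 1.5-fold in MP over EV, 3 in EV over WT, 1 in MP over M and 3 in MP over P, all higher, with 1153 genes past 2-fold in EV over WT (655 higher, against 373 by the upper quartile) and 134 in MP over P (97 higher, against 27). It put the median of all kept genes at 0.36 in MP over EV, 0.37 in EV over WT, 0.33 in MP over M and 0.39 in MP over P. Shares of all genes past 1.5-fold were taken only for the upper quartile scaling with a pseudocount of 1. A pseudocount of 0.1 put 2 members past 1.5-fold in M over EV (Cdkn1a and Cdkn2b, higher) and 2 in EV over WT (Trp53 higher, Cdkn1a lower), and gave 386, 536, 555, 1747, 355 and 363 genes past 2-fold in the 6 comparisons in the order above. Keeping genes at 5 units or more gave 37, 99, 69, 661, 20 and 66. No filter, summing loci of a symbol and the EV column of each comparison's own table left all counts of members past a fold as given. Summing loci moved Trp53 in M over EV from -0.11 to 0.0002. On percentiles of level, chosen after seeing the data, 6 of 10 members kept their sign in MP over P, 8 in M over EV and 9 in each of the other 4, and those of 0.3 or more in size all did. No paired analysis was possible because each group holds 1 library, and for the same reason no library could be left out. The missing depth and the narrow range of values, with the 99th percentile at 1.75 to 2.10 times the upper quartile, limit what differences between well-expressed genes can show.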

Other observations

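Of 57 RefSeq genes within 1 Mb of Cdkn2a on GRCm38.p6, 35 had a locus. Mtap, the nearest of these apart from Cdkn2b and an enzyme gene of methionine salvage, stood at 15.1 scaled units in M, 11.5 in P, 15.4 in MP, 15.3 in EV and 10.3 in WT. Focad, further out, stood at 10.9 in M, 10.3 in P, 10.6 in MP, 10.3 in EV and 10.8 in WT, and Klhl9, an adaptor gene of a ubiquitin ligase, at 15.7, 13.6, 15.5, 14.48 and 12.1 in the same libraries. Mir31 stood at 11.4 to 15.002. Of the interferon genes there, Ifnb1 stood at 0.255 in M, 0.112 in P, 0.146 in MP, 0.321 in EV and 0 in WT. Dmrta1, on the other side, stood at 0.0534 to 0.259. No library was listed at 0 at the Cdkn2a locus, Cdkn2b, Mtap, Klhl9 or Focad.

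The genes whose levels over the 5 libraries were nearest to those of Cdkn1a, of 9030 compared by root mean square distance of log2(level + 1), were Zfp30 (0.107), Kbtbd7 (0.111) and Klf11 (0.115). Nearest to Trp53 were Supt5 (0.0177), Ptk2 (0.0391) and Spr (0.0451). These are descriptions over 5 points that share the scaling.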
